A study of Mus musculus with 18 samples.

Results

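Recruited monocyte and early macrophage genes were followed through the first 3 days after a myocardial infarction in the mouse. They are 10 named genes, Ly6c2, Plac8, Chil3, Ms4a4c, Arg1, Nos2, Fcgr1, Adgre1, Cd68 and Ms4a7, out of 30583 genes in the count table. They were listed by name as genes of incoming monocytes and of the macrophages they become, with earlier results of these data known, so the counts of members called below are descriptions of this list. All 10 passed the filter on low counts that left 16311 genes for testing.

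The study sequenced poly(A)-selected RNA from 18 male C57BL/6JR mice aged 12 weeks, in 6 groups of 3, with 1 library per mouse. The sham mice had the whole operation with the suture passed under the left anterior descending coronary artery but not tied. In the other groups the artery was tied, and the mice were killed 10 min or 1, 6, 24 or 72 h later. The sham libraries are the only unligated controls, so every comparison with sham shares them. The RNA came from the myocardial region of the infarcted left ventricle. The labels give the cell type as cardiomyocytes, yet no step that separates cells is described and markers of fibroblasts, endothelium, macrophages and red blood cells were present in every group, so the libraries are read here as whole tissue. In such tissue, a change in the number of cells of a type and a change in RNA per cell cannot be told apart.

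Monocytes are made in the bone marrow and spleen and enter injured heart muscle from the blood. The classical kind carries the surface protein Ly6C and the chemokine receptor CCR2. In the tissue, monocytes lose Ly6C as they mature into macrophages, which engulf dead cells and gain surface proteins such as F4/80, the product of Adgre1. The healthy heart also holds resident macrophages, which already make F4/80, CD68 and the high-affinity antibody receptor. Macrophages can use the amino acid arginine in competing ways. Nitric oxide synthase, encoded by Nos2, turns it into nitric oxide, and arginase, encoded by Arg1, turns it into ornithine and urea.

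Most members have little sequence in common with other genes. Positions are those of GENCODE M21 on GRCm38, the assembly also called mm10. Ly6c2 lies at chr15:75108158-75111970, Plac8 at chr5:100553725-100572245, Chil3 at chr3:106147554-106167564, Fcgr1 at chr3:96282909-96293969, Arg1 at chr10:24915221-24927484, Cd68 at chr11:69664213-69666153, Ms4a7 at chr19:11321039-11336146, all on the minus strand. Ms4a4c lies at chr19:11404770-11427246, Nos2 at chr11:78920787-78960254 and Adgre1 at chr17:57358691-57483527, on the plus strand. Of all 50-base windows in the exons, 26.9% of those of Chil3, 14.5% of those of Ly6c2, 8.2% of those of Ms4a4c and 0.3% of those of Ms4a7 also occurred in another gene, against 0.0% for the other 6 members. How the authors' counting treated such reads is not given in the sources used here, so the levels of Chil3, Ly6c2 and Ms4a4c are uncertain to that extent. Chil4, the relative with which Chil3 shared 16.9% of its windows, was not analysed here. The exons of Ms4a4c also overlap those of the predicted gene Gm5692 on the opposite strand, by 28 bases.

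Ly6c2 shared 13.9% of its windows with Ly6c1, an endothelial and lymphocyte gene of the same family. This pair is shown because Ly6c1 was the more abundant in these hearts. Its mean in sham was 112 CPM (scaled counts per M counts, with M for mega) per kilobase, against 0.138 for Ly6c2. The reading frames of Ly6c2 and Ly6c1 have 396 bases each, differ at 9 positions and are 97.7% identical. The first 120 bases, from the start codon of the GENCODE M21 transcripts and 5′ to 3′, hold 6 of these differences, which are in capitals.
Ly6c2: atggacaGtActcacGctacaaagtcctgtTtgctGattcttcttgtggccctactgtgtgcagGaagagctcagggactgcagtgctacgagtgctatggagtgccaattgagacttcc
Ly6c1: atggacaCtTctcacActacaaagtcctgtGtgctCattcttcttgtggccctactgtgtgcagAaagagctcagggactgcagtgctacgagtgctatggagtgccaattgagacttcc
Mean levels of Ly6c1, in CPM, were 188 ± 7.83 (SD, n = 3) in sham, 317 ± 19.7 at 6 h, 163 ± 24.5 at 24 h and 76.0 ± 7.80 at 72 h. Ly6c1 was called higher than sham at 6 h, by 0.75 on the log2 scale, and lower at 72 h, at -1.31 (edgeR adjusted p = 9.27e-08), where Ly6c2 was higher.

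RefSeq promoter windows, from 250 bases before to 50 after the start on GRCm38.p6, were found for 7 of the 10 members and not for Arg1, Nos2 and Adgre1. The upstream 250 bases are shown for Chil3, whose mean was highest at 24 h, and for Plac8, Fcgr1 and Cd68, which rose to 72 h, because the members fell into these patterns. The sequences run 5′ to 3′ along the gene's strand, and capitals mark every match on either strand to 6 searched motifs.
Chil3 promoter, chr3:106167565-106167814, minus strand: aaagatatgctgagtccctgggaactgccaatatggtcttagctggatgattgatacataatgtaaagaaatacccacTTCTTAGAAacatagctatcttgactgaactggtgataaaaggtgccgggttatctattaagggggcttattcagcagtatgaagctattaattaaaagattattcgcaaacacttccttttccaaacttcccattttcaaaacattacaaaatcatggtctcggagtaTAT
Plac8 promoter, chr5:100572206-100572455, minus strand: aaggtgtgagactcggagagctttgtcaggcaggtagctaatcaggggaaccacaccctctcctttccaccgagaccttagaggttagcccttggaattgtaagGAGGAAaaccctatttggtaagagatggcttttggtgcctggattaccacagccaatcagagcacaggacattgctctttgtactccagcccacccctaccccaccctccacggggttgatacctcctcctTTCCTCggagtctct
Fcgr1 promoter, chr3:96293970-96294219, minus strand: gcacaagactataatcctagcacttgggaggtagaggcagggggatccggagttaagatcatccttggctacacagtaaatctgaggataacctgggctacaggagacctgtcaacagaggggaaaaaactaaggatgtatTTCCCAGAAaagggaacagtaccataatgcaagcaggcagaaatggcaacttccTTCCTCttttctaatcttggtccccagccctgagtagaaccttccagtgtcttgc
Cd68 promoter, chr11:69666171-69666420, minus strand: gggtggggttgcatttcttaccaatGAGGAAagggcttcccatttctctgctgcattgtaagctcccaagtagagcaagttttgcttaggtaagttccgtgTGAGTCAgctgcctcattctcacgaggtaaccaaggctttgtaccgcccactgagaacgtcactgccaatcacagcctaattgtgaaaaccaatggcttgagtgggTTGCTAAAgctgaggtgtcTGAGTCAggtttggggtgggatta
The motifs were GAGGAA, the core of the site of the myeloid factor PU.1, TTGCNNAA for C/EBP, TGANTCA for AP-1, TTCNNNGAA for STAT factors, ACGTG for hypoxia-inducible factors and TATAAA, the TATA box. GAGGAA occurred in the windows of 6 of the 7 members, all but that of Chil3, and in 28.3% of all 32851 windows of this length. The window of Ms4a4c lies 2891 bases from the start of the gene in GENCODE M21, so its match stands at another start than the one used here for the gene's position. In the window of Ms4a7 the match lay after the start, at position 43. TTCNNNGAA occurred in the windows of Chil3, at -172, and of Fcgr1, at -109, and in 8.3% of all windows. The Cd68 window held TGANTCA at -149 and -24, with 7.8% of all windows having a match, and TTGCNNAA at -43, with 10.8%. TATAAA was found in Chil3 at -3 and in 13.6% of all windows, and ACGTG in 0 of the 7 members and in 19.6%. These matches describe letters in the window only. Nothing in the data measured binding there.

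Libraries held 18.2 to 25.1 M counts. Some libraries stood apart from the others of their group across the members: replicate 1 at 6 h was the highest of its group for 10 of the 10 genes, and replicate 3 at 24 h for 9 of the 10. The summed level of 13 neutrophil markers moved with them. At 6 h it was 1027 CPM in replicate 1, 466 in replicate 2 and 286 in replicate 3, and at 24 h it was 322, 114 and 1101 CPM, against 5.55 to 7.78 in sham. The cardiomyocyte markers, 9 genes, summed to 30773 CPM in replicate 3 at 24 h and to 46271 and 44891 in the other two. What part these differences in makeup played in the members' levels was not tested, and levels that moved by over 1.5 times without either library are given both ways where the text rests on them. Among the members, these were the 6 h means of Ly6c2, Chil3 and Ms4a7 and the 24 h means of Ly6c2, Chil3 and Arg1. These means were computed without each library after the data had been seen.

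At 10 min and 1 h, 0 of the 10 members differed from sham (edgeR, adjusted p under 0.05), with 0.0736% and 0.294% of all tested genes called. Without that adjustment, 1144 and 899 of all genes had a p under 0.05, and among the members only Nos2 at 1 h did. At 6 h, 7 members were higher and 1 lower than sham, where 16.3% of all genes were called higher and 12.2% lower. At 24 h 9 members were higher and 0 lower, where 23.7% and 20.2% of all genes were, and at 72 h 9 were higher and 0 lower, where 34.2% and 32.2% were. The median log2 fold change of the members against sham was 1.64, 2.91 and 5.12 at 6, 24 and 72 h, while that of all genes was -0.01, 0.01 and 0.03. Between consecutive times, 8 members differed between 6 h and 1 h, with 24.5% of all genes called, and 8 were higher at 24 h than at 6 h, as were 14.2% of all genes. All 6 of those called between 72 h and 24 h were higher at 72 h, as were 24.4% of all genes. Leaving out any one mouse left 6 to 7 members called at 6 h and 9 at both later times.

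**Figure D1:**
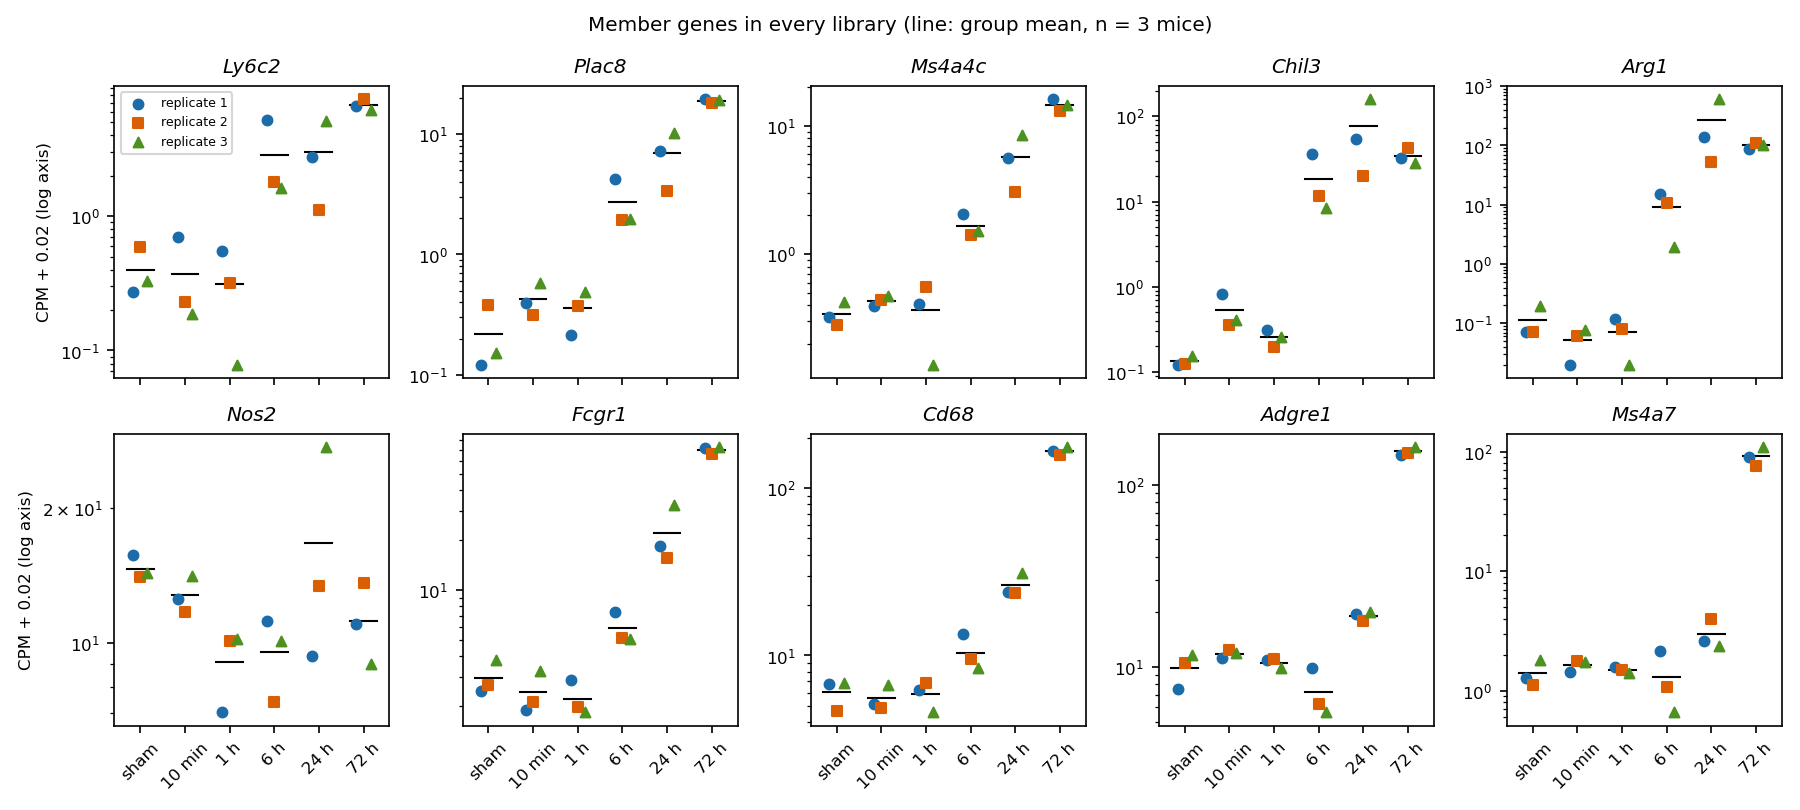
Level of each gene in each of the 18 libraries, as CPM plus 0.02 on a log axis, by group; symbols mark the replicates and horizontal lines the group means of 3 mice. Levels of 9 genes lie far above sham at 72 h, Nos2 does not, and replicate 3 at 24 h lies highest for 9 of the 10 genes.

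The monocyte genes rose by 6 h and, except for Chil3, had their highest mean at 72 h. Ly6c2 encodes a Ly6C surface protein. Its level was 0.253, 0.570 and 0.311 CPM in the 3 sham libraries. It was 0.685, 0.210 and 0.168 CPM at 10 min and 0.531, 0.296 and 0.0583 CPM at 1 h. Sham and these early groups overlapped fully. Ly6c2 then read 5.19, 1.77 and 1.60 CPM at 6 h and 2.72, 1.10 and 5.05 CPM at 24 h. At 72 h it read 6.56, 7.40 and 6.11 CPM. Every library from 6 h on was above every sham library, while the 6 h and 24 h libraries overlapped. The log2 fold change against sham was 2.89 ± 0.67 (SE) at 6 h (edgeR adjusted p = 0.00465), 2.93 ± 0.66 at 24 h and 4.14 ± 0.64 at 72 h. The step from 6 to 24 h was 0.04 ± 0.53 (edgeR adjusted p = 0.962), and that from 24 to 72 h was 1.20 ± 0.50 (edgeR adjusted p = 0.0565). The latter passed the threshold without replicate 3 at 24 h, at 1.82 (edgeR adjusted p = 0.00643). Without replicate 1, the change at 6 h was 2.15 and the group mean 1.68 CPM in place of 2.85, and without replicate 3 the mean at 24 h was 1.91 in place of 2.96. Sham held 23 Ly6c2 counts in all, and the ratio of summed counts at 72 h to sham was 17.9 with an exact 95% counting interval of 11.8 to 28.5.

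Plac8 encodes a small cysteine-rich protein abundant in blood monocytes. In sham it read 0.101, 0.363 and 0.133 CPM, and at 10 min and 1 h it ranged from 0.193 to 0.558 CPM. The level was 4.23, 1.91 and 1.97 CPM at 6 h, 7.29, 3.36 and 10.2 CPM at 24 h, and 19.5, 18.1 and 19.4 CPM at 72 h. The 72 h libraries lay close together and above all others. Against sham the log2 fold change was 3.74 ± 0.55 at 6 h, 5.10 ± 0.51 at 24 h and 6.56 ± 0.50 at 72 h (edgeR adjusted p = 6.05e-09). Sham held 12 counts, which makes the size of these folds imprecise: the counting interval of the ratio at 72 h ran from 55.6 to 189, and without sham replicate 2 the log2 fold change at 72 h was 7.26. Both later steps were called, 1.36 ± 0.36 from 6 to 24 h and 1.46 ± 0.33 from 24 to 72 h. The 6 h and 24 h libraries overlapped, and a fit of only those 6 libraries did not call that step (edgeR adjusted p = 0.110).

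Ms4a4c belongs to a family of membrane proteins that span the membrane several times, and is transcribed in Ly6C-high monocytes. It read 0.303, 0.259 and 0.400 CPM in sham and 0.117 to 0.533 CPM at 10 min and 1 h. It then read 2.03, 1.39 and 1.49 CPM at 6 h, 5.61, 3.01 and 8.46 CPM at 24 h and 16.1, 13.1 and 14.4 CPM at 72 h. These 3 groups did not overlap with each other or with sham. The log2 fold changes against sham were 2.31 ± 0.43, 4.10 ± 0.39 and 5.46 ± 0.38, and each step was called, with edgeR adjusted p = 5.26e-04 from 6 to 24 h and 4.27e-04 from 24 to 72 h.

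Chil3 encodes the chitinase-like protein Ym1, which neutrophils and monocytes also make. It read 0.101, 0.104 and 0.133 CPM in sham, from 7 counts in all. At 10 min it read 0.809, 0.336 and 0.391 CPM and at 1 h 0.290, 0.178 and 0.233 CPM. Although every library of these early groups lay above every sham library, neither difference was called (edgeR adjusted p = 0.917 and 0.999). The log2 fold change at 10 min was 2.05 ± 2.07. The counting interval of the ratio at 10 min was 1.82 to 11.6, which covers counting error only and not the spread between mice. Chil3 read 35.8, 11.7 and 8.36 CPM at 6 h, 54.5, 20 and 159 CPM at 24 h, and 32.8, 42.2 and 28.3 CPM at 72 h. The 24 h libraries overlapped with those at 6 h and with those at 72 h. Log2 fold changes against sham were 7.28 ± 1.2 at 6 h, 9.34 ± 1.12 at 24 h and 8.17 ± 1.14 at 72 h (edgeR adjusted p = 2.53e-05). The step from 6 to 24 h was called, at 2.07 ± 0.63 (edgeR adjusted p = 0.0255), but was 1.01 without replicate 3 at 24 h (edgeR adjusted p = 0.177), and was also no longer called without replicate 2 or 3 at 6 h. The step from 24 to 72 h was -1.17 ± 0.60 (edgeR adjusted p = 0.121), -0.12 without replicate 3 at 24 h and -1.63 without replicate 2 (edgeR adjusted p = 0.0154). The mean at 24 h was 77.8 ± 72.4 CPM (SD, n = 3) and 37.2 CPM without replicate 3, next to 34.4 ± 7.11 at 72 h. Without replicate 1 the log2 fold change at 6 h was 6.40 and the mean 10.0 CPM in place of 18.6. The libraries with the highest Chil3 at 6 h and at 24 h were also those with the highest summed neutrophil markers, whose part in the Chil3 level was not tested.

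Arg1, the arginase of activated macrophages, had the largest change of any member, and Nos2, its competitor for arginine, did not differ from sham in the fit of all 18 libraries at any time. Arg1 read 0.0506, 0.0519 and 0.178 CPM in sham, from 6 counts in all, and 0 to 0.0966 CPM at 10 min and 1 h. At 6 h it read 15.2, 10.5 and 1.92 CPM, at 24 h 140, 52.3 and 602 CPM, and at 72 h 86.6, 111 and 103 CPM. Replicate 3 at 24 h stood far above the other two of its group, of which 1 was above and 1 below the 72 h range. The log2 fold changes against sham were 6.48 ± 1.55 at 6 h (edgeR adjusted p = 0.00780), 11.33 ± 1.33 at 24 h and 9.92 ± 1.34 at 72 h (edgeR adjusted p = 2.06e-05). The ratio of summed counts at 24 h was 2376, with an interval of 1091 to 6474 for counting error only. Without replicate 3 at 24 h the log2 fold change there was 9.87 and the group mean fell from 265 ± 295 to 96.2 CPM, next to 100 ± 12.3 at 72 h. Without sham replicate 3 the changes were 7.33, 12.18 and 10.78. From 6 to 24 h Arg1 rose by 4.85 ± 0.82 (edgeR adjusted p = 0.00106), or by 3.39 without replicate 3 at 24 h. The step from 24 to 72 h was -1.40 ± 0.68 (edgeR adjusted p = 0.107). It was 0.05 without replicate 3 at 24 h, and -1.89 and called without replicate 2 (edgeR adjusted p = 0.0148), so these 3 mice do not fix its direction.

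Nos2 read 15.7, 14.0 and 14.3 CPM in sham, 12.5, 11.7 and 14.1 CPM at 10 min and 7.0, 10.1 and 10.2 CPM at 1 h. It read 11.2, 7.37 and 10.1 CPM at 6 h, 9.37, 13.4 and 27.3 CPM at 24 h and 11, 13.6 and 8.97 CPM at 72 h. All libraries at 1, 6 and 72 h were below the lowest sham library, while those at 24 h lay on both sides of sham. The log2 fold change against sham was -0.69 ± 0.30 at 1 h (edgeR adjusted p = 0.833), -0.62 ± 0.30 at 6 h (edgeR adjusted p = 0.132), 0.18 ± 0.29 at 24 h (edgeR adjusted p = 0.637) and -0.39 ± 0.29 at 72 h (edgeR adjusted p = 0.248). The 24 h value was -0.36 without replicate 3 at 24 h, and the 72 h value was 0.20 when libraries were scaled by their totals. In fits of only the 6 libraries compared, Nos2 was called lower than sham at 1 h, at 6 h, at -0.61 (edgeR adjusted p = 0.0223), and at 72 h, at -0.38 (edgeR adjusted p = 0.0213). Between times after ligation, Nos2 was called higher at 24 h than at 1 h, by 0.87 ± 0.30 (edgeR adjusted p = 0.0259), with overlapping libraries. That difference was 0.34 without replicate 3 at 24 h (edgeR adjusted p = 0.223) and 0.71 without replicate 1 at 1 h (edgeR adjusted p = 0.107). From 6 to 24 h the change was 0.80 ± 0.30 (edgeR adjusted p = 0.0545). It was called by DESeq2 (adjusted p = 0.0233), with library totals, by limma on log2 FPKM and without replicate 1 at 24 h, and was 0.27 without replicate 3 (edgeR adjusted p = 0.377). The counts do not show where along the gene the reads fell.

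Within a library, Arg1 and Nos2 can be set against each other per kilobase of transcript. The log2 ratio of Arg1 to Nos2 was -6.71, -6.50 and -5.18 in the sham libraries, 1.42, 1.5 and -1.39 at 6 h, 4.89, 2.95 and 5.45 at 24 h, and 3.96, 4.01 and 4.50 at 72 h. Nos2 was thus the more abundant in every sham library and Arg1 in every library at 24 and 72 h. The ratio differed by -0.27 between 72 and 24 h (two-sided exact permutation p = 0.900 and 0.900 adjusted over 5 ratios, n = 3 against 3), and by 0.24 without replicate 3 at 24 h.

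The macrophage genes started from a measurable level in sham. For Cd68, Adgre1 and Ms4a7 the step from 24 to 72 h was the largest part of the rise on the log2 scale, while Fcgr1 had gained more by 24 h than it gained afterwards. Fcgr1 encodes CD64, the high-affinity receptor for IgG. It read 2.43, 2.64 and 3.78 CPM in sham and 1.81 to 3.24 CPM at 10 min and 1 h. It then read 7.39, 5.12 and 5.06 CPM at 6 h, 18.5, 15.5 and 32.5 CPM at 24 h and 72.0, 66.2 and 73.0 CPM at 72 h. No group from 6 h on overlapped with another or with sham. The log2 fold changes were 0.97 ± 0.29 at 6 h (edgeR adjusted p = 0.0203), 2.89 ± 0.28 at 24 h and 4.57 ± 0.28 at 72 h. The call at 6 h was lost without replicate 1 at 6 h, at 0.78 (edgeR adjusted p = 0.102), and without sham replicate 1 or 2. The steps of 1.92 ± 0.26 and 1.67 ± 0.24 were both called.

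Cd68 encodes a lysosomal glycoprotein of phagocytes. Its sham libraries read 6.72, 4.62 and 6.84 CPM, and those at 10 min and 1 h 4.55 to 6.87 CPM. It read 13.4, 9.57 and 8.36 CPM at 6 h, 23.8, 23.7 and 31 CPM at 24 h and 166, 158 and 176 CPM at 72 h. From 6 h on the groups were ordered with no overlap. The log2 fold changes were 0.77 ± 0.19 at 6 h (edgeR adjusted p = 0.00657), 2.1 ± 0.19 at 24 h and 4.78 ± 0.20 at 72 h (edgeR adjusted p = 5.43e-12). The step from 24 to 72 h was 2.68 ± 0.18, and that from 6 to 24 h was 1.33 ± 0.18.

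Adgre1, which encodes F4/80, was the one member called lower than sham at 6 h. It read 7.48, 10.5 and 11.6 CPM in sham and 9.79 to 12.3 CPM at 10 min and 1 h. At 6 h it read 9.77, 6.22 and 5.59 CPM, which overlaps with sham. It then read 19.4, 17.7 and 19.9 CPM at 24 h and 145, 149 and 161 CPM at 72 h. The change at 6 h was -0.47 ± 0.17 on the log2 scale (edgeR adjusted p = 0.0470). That call was close to the threshold. It was lost with other size factors (DESeq2's method within edgeR, adjusted p = 0.0524), in a fit of the 6 libraries alone (edgeR adjusted p = 0.197), and without sham replicate 2 or 3 or 6 h replicate 2 or 3, where the change was -0.42 to -0.32. Against the other early groups Adgre1 at 6 h was lower with no overlap of libraries, by -0.72 ± 0.17 against 10 min (edgeR adjusted p = 0.00461) and by -0.56 ± 0.17 against 1 h (edgeR adjusted p = 0.0232). Without each mouse in turn the difference from 10 min stayed called, at -0.99 to -0.57. The change was 0.94 ± 0.16 at 24 h (edgeR adjusted p = 1.93e-04) and 3.94 ± 0.17 at 72 h (edgeR adjusted p = 4.28e-12). Of that rise, 3.00 ± 0.16 came between 24 and 72 h.

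Ms4a7 belongs to the same family as Ms4a4c and lies near it on chromosome 19, and is transcribed in macrophages. It read 1.26, 1.09 and 1.78 CPM in sham, 1.40 to 1.76 CPM at 10 min and 1 h, and 2.15, 1.05 and 0.639 CPM at 6 h. It read 2.59, 4.0 and 2.37 CPM at 24 h and 90.1, 75.7 and 110 CPM at 72 h. Sham and 6 h overlapped, and 72 h stood far above all others. The log2 fold change was -0.15 ± 0.35 at 6 h (edgeR adjusted p = 0.789), 1.12 ± 0.30 at 24 h and 6.04 ± 0.28 at 72 h (edgeR adjusted p = 1.67e-11). The direction at 6 h depended on 1 mouse, with 0.09 without sham replicate 3 and 0.17 without 6 h replicate 3. The lowest value with 1 mouse left out was -0.70. Without replicate 1 the mean at 6 h was 0.846 CPM in place of 1.28. The step from 24 to 72 h, 4.92 ± 0.25 (edgeR adjusted p = 2.00e-10), was the largest of any member. Ms4a7 was also the one member for which replicate 3 at 24 h was the lowest of its group.

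**Figure D2:**
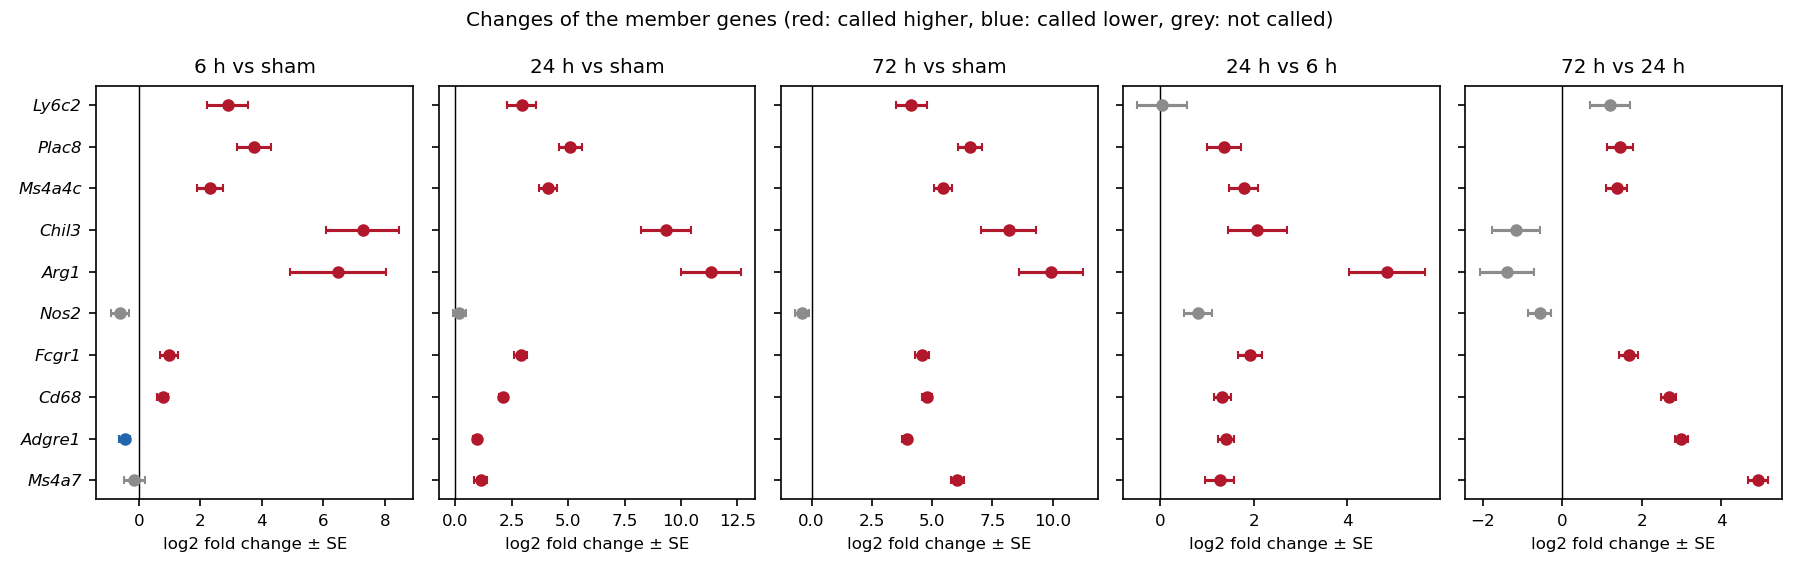
Log2 fold change ± SE of each gene against sham at 6, 24 and 72 h, from 6 to 24 h and from 24 to 72 h, from the edgeR fit; red points were called higher, blue lower and grey not called. Among these comparisons, Adgre1 at 6 h against sham is the one blue point, at -0.47, and Ly6c2, Chil3, Arg1 and Nos2 are grey between 72 and 24 h.

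The members differed in when their levels were highest. As a share of the highest group mean, Ly6c2 stood at 42.6% at 6 h, 44.2% at 24 h and 100% at 72 h. Without replicate 1 at 6 h and replicate 3 at 24 h these early shares of Ly6c2 were 25.2% and 28.5%. Plac8 stood at 14.3% and 36.6% at 6 and 24 h, Ms4a4c at 11.3% and 39.2%, and Fcgr1 at 8.32% and 31.5%. Cd68, Adgre1 and Ms4a7 had reached only 15.7%, 12.5% and 3.25% at 24 h. Chil3 and Arg1 had their highest mean at 24 h and stood at 44.2% and 37.7% of it at 72 h, but these 2 means at 24 h rested on replicate 3. Without it, Chil3 at 72 h stood at 92.4% of its 24 h mean, and Arg1 was highest at 72 h, with 96.2% of that mean at 24 h. For neither gene were 24 and 72 h called different with all mice. For Nos2 the mean of 16.7 ± 9.42 CPM at 24 h became 11.4 CPM without replicate 3, which is below the 14.6 ± 0.909 CPM of sham.

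**Figure D3:**
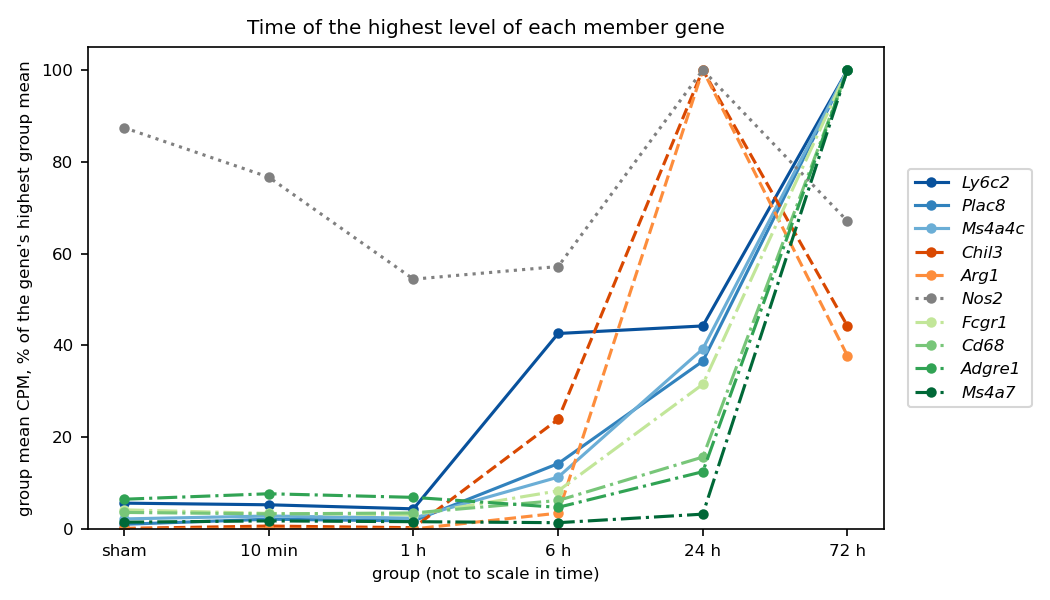
Group mean CPM of each gene as a percentage of its own highest group mean, by group from sham to 72 h; lines join the means of 3 mice and the time axis is not to scale. Ly6c2 stood at 42.6% at 6 h (25.2% without replicate 1), whereas Ms4a7 stood at 3.25% at 24 h.

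Levels of different genes are compared here as CPM per kilobase of transcript, as group means. In sham the order was Cd68 at 4.82, Nos2 at 3.32, Adgre1 at 3.05 and Fcgr1 at 1.14, and the other 6 lay between 0.0419 and 0.309. At 24 h Arg1 was first at 119, then Chil3 at 47.7 and Cd68 at 20.8. Without replicate 3 these were 43.2, 22.8 and 18.9, in the same order. At 72 h Cd68 was first at 133, followed by Adgre1 at 46.8, Arg1 at 44.9, Fcgr1 at 27.2, Chil3 at 21.1, Ms4a7 at 20.6, Plac8 at 11.9, Ms4a4c at 8.30, Nos2 at 2.53 and Ly6c2 at 2.44. These orders were not tested. Across groups, the neighbours in each gene's order of means that did not differ in edgeR were sham, 10 min and 1 h for all 10 members, 24 and 6 h as well as 72 and 24 h for Ly6c2, 24 and 72 h and 72 and 6 h for Chil3, 24 and 72 h for Arg1, and sham and 6 h for Ms4a7. For Nos2 no neighbours differed.

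Further ratios within libraries were compared between 24 and 72 h, since a ratio of 2 genes in 1 library does not depend on the library's scaling. The log2 ratio of Ms4a7 to Ly6c2 per kilobase was -0.77, 1.15 and -1.78 at 24 h and 3.08, 2.65 and 3.47 at 72 h. The mean difference was 3.53. The ratio of Chil3 to Ms4a7 was 5.83, 3.77 and 7.50 at 24 h and -0.01, 0.61 and -0.51 at 72 h, a difference of -5.67. The ratio of Fcgr1 to Adgre1 was 0.26, 0.14 and 1.03 at 24 h and -0.68, -0.85 and -0.81 at 72 h, a difference of -1.26. The ratio of Cd68 to Ly6c2 was 4.24, 5.54 and 3.73 at 24 h and 5.78, 5.54 and 5.97 at 72 h, a difference of 1.26. In all 4 the groups did not overlap, although for Cd68 to Ly6c2 the nearest libraries both read 5.54 after rounding. In all 4 the two-sided exact permutation p was 0.1, the smallest that 3 against 3 allows, and 0.125 adjusted over the 5 ratios. With n = 3 this test cannot pass 0.05.

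**Figure D4:**
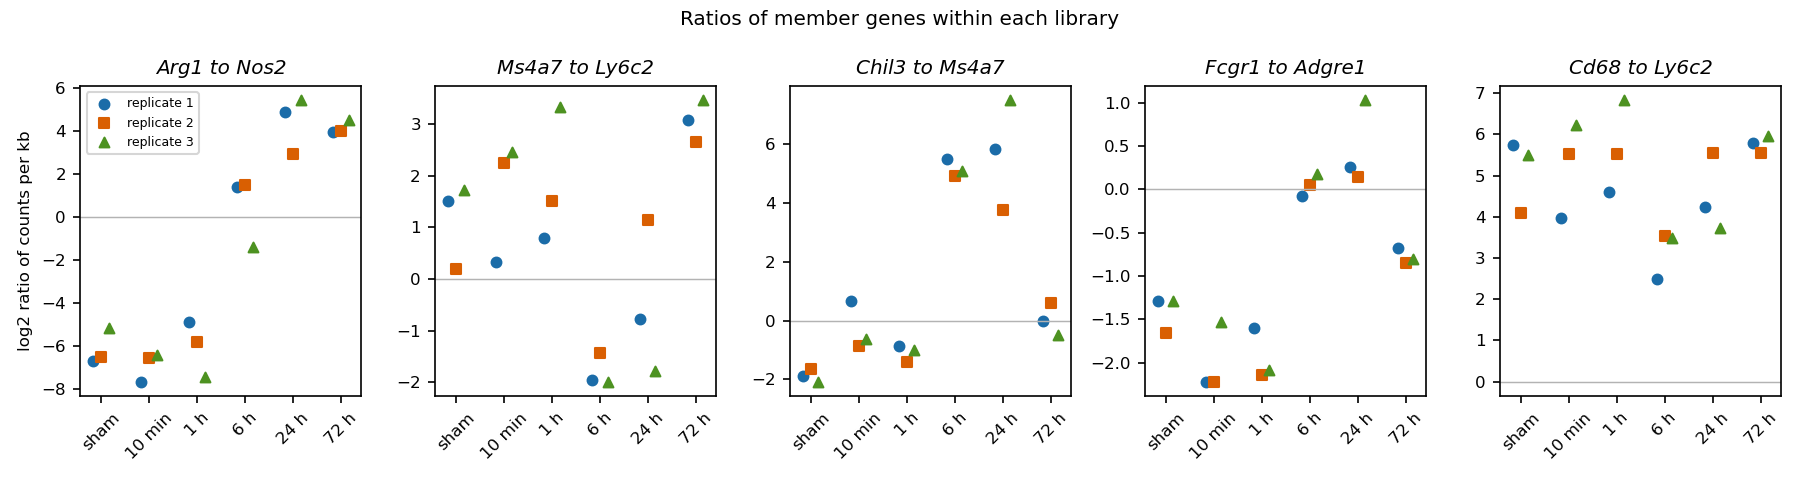
Log2 ratios of pairs of member genes per kilobase in each of the 18 libraries, by group, with symbols for the replicates. Ms4a7 to Ly6c2 lies at 2.65 or above in the 72 h libraries and at 1.15 or below in those of 24 h, and Arg1 to Nos2 changes sign between sham and 24 h.

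Genes of the same pathways were counted from lists set beside the members. For reference, 16.3%, 23.7% and 34.2% of all tested genes were called higher than sham at 6, 24 and 72 h. Those called lower were 12.2%, 20.2% and 32.2%. Of 20 companions of classical monocytes, 14 were higher and 0 lower than sham at 6 h, 19 and 0 at 24 h and 18 and 0 at 72 h, with medians of 1.90, 3.22 and 4.11. Clec4e, a receptor for dead-cell and fungal products, had a mean of 0.0613 CPM in sham, 7.05 at 6 h, 17.5 at 24 h and 6.70 at 72 h. F10, the clotting factor X gene, had 0.0929, 3.32, 28.6 and 7.63 CPM in these groups. The 24 h means rested on replicate 3: Clec4e read 5.65, 3.82 and 42.9 CPM and F10 14.6, 6.15 and 65.1 CPM there. Without it they were 4.74 CPM for Clec4e, which is below 72 h, and 10.4 CPM for F10. Without replicate 1 the 6 h mean of Clec4e was 3.87 CPM. At 72 h they were above sham by 6.57 ± 1.45 and 6.21 ± 1.13 on the log2 scale (edgeR adjusted p = 0.00125 and 2.39e-04).

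Of 11 genes of non-classical, patrolling monocytes, 10 were tested. At 6 h, 5 were higher and 1 lower, at 24 h 7 and 1, and at 72 h 7 and 2, with medians of 0.63, 0.89 and 1.85. The count at 24 h was 3 higher and 1 lower without replicate 3 at 24 h. Cx3cr1, the fractalkine receptor of patrolling monocytes and resident macrophages, fell by 2.46 at 6 h (edgeR adjusted p = 7.06e-05), from a mean of 6.64 to 1.20 CPM, and at 72 h stood at 52.5 CPM, above sham by 2.98 ± 0.27 on the log2 scale (edgeR adjusted p = 4.79e-08). Treml4 rose to 2.24 CPM at 72 h from 0.0810 in sham and Pou2f2, a B-cell and monocyte transcription factor, to 17.6 from 1.67. Muscle enolase, Eno3, fell to 329 CPM at 72 h from 1267 in sham, and the fatty acid transporter Cd36 was 1316 CPM in sham, 2008 at 6 h and 560 at 72 h. Eno3 and Cd36 are also abundant in heart muscle cells, whose 9 markers summed to 68973 to 74181 CPM in sham and 17406 to 23393 at 72 h.

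Of 20 genes of macrophage differentiation, 10 were higher and 1 lower at 6 h, 15 and 1 at 24 h, and 19 and 0 at 72 h, with medians of 0.65, 1.53 and 3.27. Lgals3, which encodes galectin-3, had a mean of 2.88 CPM in sham and of 15.9, 94.8 and 509 CPM at 6, 24 and 72 h. Trem2, a lipid receptor of macrophages, was 2.22 CPM in sham and 158 at 72 h, a log2 difference of 6.15 ± 0.23 (edgeR adjusted p = 2.55e-12). Aif1, which encodes the macrophage protein Iba1, fell by 1.05 at 6 h (edgeR adjusted p = 0.00190) and rose by 1.21 at 24 h and 3.65 at 72 h. Adgre1 also went from lower to higher. Apoe, the lipid carrier apolipoprotein E, was -0.48 at 24 h (edgeR adjusted p = 0.0137) and 3.15 at 72 h. The 8 markers of resident cardiac macrophages summed to 282 to 314 CPM in sham, 283 to 353 at 6 h and 404 to 511 at 72 h, with 2 higher and 2 lower at 6 h and 4 higher and 2 lower at 72 h.

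The other Fc gamma receptors and their signalling chain were also counted. All 4 were higher than sham at 6, 24 and 72 h, with medians of 2.05, 2.58 and 3.72. Fcgr4, a receptor of IgG on monocytes and neutrophils, had a mean of 0.462 CPM in sham and 18.8 at 72 h, and Fcer1g, the chain that Fcgr1 needs to signal, of 8.03 and 123 CPM. At 6 h Fcgr1 had a log2 fold change of 0.97 and Fcgr4 of 2.76. From 6 to 24 h, 1 of the 4 was called higher, as were 14.2% of all genes, with a median of 0.53 beside 1.92 for Fcgr1. From 24 to 72 h 2 were, as were 24.4% of all genes, with a median of 1.14 beside 1.67.

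Of 16 other genes of arginine and nitric oxide metabolism 15 were tested, and 6 were higher and 1 lower at 6 h, 7 and 3 at 24 h and 7 and 6 at 72 h, with medians of 0.33, 0.43 and 0.38. The count at 6 h was 3 higher and 0 lower without replicate 1. Of all tested genes, 23.7% were higher and 20.2% lower at 24 h, and 34.2% and 32.2% at 72 h. Arg2, the mitochondrial arginase, read a mean of 0.0678 CPM in sham, 1.88 at 6 h, 1.94 at 24 h and 0.710 at 72 h, but 0.888 CPM at 6 h without replicate 1 and 0.646 at 24 h without replicate 3. Ddah1, which degrades an inhibitor of nitric oxide synthase, was 5.01 CPM in sham and 38.1 at 72 h (log2 fold change 2.93 ± 0.19). Spr, an enzyme that makes a cofactor of nitric oxide synthase, fell by 0.84 at 72 h (edgeR adjusted p = 2.29e-06). The arginine transporter Slc7a1 and the endothelial synthase Nos3 were higher at 6 h, at 0.67 and 0.54, and lower at 72 h, at -0.50 and -0.56 (edgeR adjusted p = 0.0170 and 0.00900).

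The lists of classical and of alternative activation, often read as opposite states of macrophages, both held more higher than lower genes. Of 16 genes of classical activation 13 were tested, with 7 higher and 0 lower at 6 h, 10 and 1 at 24 h and 9 and 0 at 72 h, and medians of 2.29, 3.25 and 3.52. The summed level of all 16 was 111, 85.4 and 462 CPM in the 24 h libraries. It was 51.3 to 57.0 CPM in sham and 161 to 175 at 72 h. The count and median at 24 h thus include replicate 3, which stood far above replicates 1 and 2. Il6 read a mean of 0.0346 CPM in sham, 26.3 at 6 h (16.6 without replicate 1) and 3.54 at 72 h, and the chemokine Cxcl10 0.323 in sham and 12.5 at 72 h. Of 16 genes of alternative activation 15 were tested, with 9 higher and 1 lower at 6 h, 10 and 1 at 24 h and 10 and 3 at 72 h, and medians of 1.09, 1.43 and 2.45. Il10, the anti-inflammatory cytokine, had 0 counts in sham. Its mean of 0.541 CPM at 72 h was at least 11.1-fold higher than the level of 3 counts over the sham group. With Il10 at that bound the list's medians were 1.07, 1.12 and 2.45. Il1rn, the interleukin-1 receptor antagonist, read 0.115 CPM in sham, 35.3 at 24 h and 11.1 at 72 h, with 9.92 at 24 h without replicate 3. Retnla, often used with Arg1 and Chil3 as a marker of alternative activation, went the other way and fell by 2.53 at 24 h and 2.54 at 72 h (edgeR adjusted p = 3.72e-05). Stab1, a scavenger receptor of resident macrophages, was -0.31 at 6 h (edgeR adjusted p = 0.0403) and 2.45 at 72 h.

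In the MS4A family, 9 of 14 listed genes were tested besides the members. At 6 h 5 were higher and 0 lower, at 24 h 5 and 1, and at 72 h 8 and 0, with medians of 1.26, 1.66 and 3.76. Ms4a6d had means of 2.0 CPM in sham, 18.5 at 6 h, 24.2 at 24 h and 90.4 at 72 h. Like Ms4a4c it had a step by 6 h, but it rose less from 6 to 24 h. Its log2 fold changes against sham were 3.19 and 3.58 at these times, beside 2.31 and 4.10 for Ms4a4c. Ms4a14 was 0.454 CPM in sham, 0.595 at 24 h and 11.3 at 72 h, a late rise like that of Ms4a7. Ms4a4d was lower at 24 h, at -0.48, and higher at 72 h, at 0.46. Among 9 relatives of the members that were tested, 4 were higher and 1 lower at 6 h and 6 and 1 at 72 h. Chil1, a relative of Chil3, read 0.0148 CPM in sham and 2.94 at 24 h, or 0.444 at 24 h without replicate 3. Adgre4, a relative of Adgre1, was -1.44 at 6 h (edgeR adjusted p = 0.0293) and 1.84 at 72 h (edgeR adjusted p = 1.14e-04).

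For each member the 2 genes with the most similar course over the 18 libraries were sought among 11670 genes, by Pearson's r of log2 CPM. The libraries fall into groups in time, so any gene that changed at the same times scores high, and the values are descriptions. Ly6c2 was most like Rai14 and Oas3 (r = 0.97 for both), Plac8 like Bin2 and AB124611 (0.98 for both) and Ms4a4c like Apbb1ip (0.99) and Slc41a2 (0.98). Chil3 was most like Cd44 and Pdpn (0.98 for both), and Arg1 like Itgam and Rtn4 (0.98 for both). Fcgr1 was most like Cyth4 and Lgals3, and Cd68 like Lgmn and C3ar1, each at 0.99. Ms4a7 and Adgre1 had the same closest pair, Gltp and Scpep1, at 0.99. Scpep1 had means of 15.5 CPM in sham, 15.1 at 6 h, 23.2 at 24 h and 83.1 at 72 h. Itgam had 2.01, 16.8, 53.0 and 44.5 CPM in these groups. Without replicate 3 its mean at 24 h was 26.3 CPM, below that at 72 h. Nos2 had no close match, with Cactin at 0.89 and Kctd13 at 0.80.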

How the data were processed

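Poly(A)-selected RNA was sequenced from 18 left ventricles, 1 library per mouse and 3 mice per group. The authors deposited read counts per Ensembl gene and FPKM values. Per the submitters' processing notes, cutadapt 1.18, HISAT2 2.1.0, featureCounts and the mm10 build were used. Settings for strand and for reads that match several genes are not given in the sources used here. The deposited FPKM columns of 6 h replicates 2 and 3 follow each other's counts, so counts were the main measure. The deposited FPKM served for gene lengths and as an alternative measure in comparisons between groups. No molecular identifiers are described, so counting intervals cover counting error only.

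Symbols and coordinates came from GENCODE M21 by Ensembl ID, with 30489 IDs matched and 94 not. Counts were fitted in R 4.3.3 with edgeR 4.0.16: filterByExpr left 16311 genes and removed 14272, and TMM scaled the libraries, with factors from 0.825 to 1.43. A robust quasi-likelihood fit of all 18 libraries gave 15 contrasts, two-sided. Calls required an adjusted p (Benjamini-Hochberg, over all tested genes) under 0.05. The common biological coefficient of variation was 0.149. CPM values are TMM-scaled counts per M counts, and ± is the SD of 3 mice for levels and the SE for fold changes. Mice of a group are treated as separate samples. Counting intervals are exact at 95%. Ratios used unscaled counts per kilobase with a prior of 0.5 counts and two-sided exact permutation tests in SciPy 1.17.1. The script was tested on simulated counts.

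The members and lists were chosen with earlier results of these data known. Named genes were the members, and in each companion list the 2 largest rises and the largest fall called at 72 h, genes called in both directions at different times, and the relatives of members. Of the relatives, Ly6c1, Chil1, Adgre4, Ms4a4d and Fcgr4 are named. For likeness, genes needed a mean of at least 50 counts. Alternatives were other scalings, DESeq2 1.42.0, other filters on low counts, limma 3.58.1 on log2 FPKM plus 1 or 0.1, only the 6 libraries compared, a replicate block, and leaving out each mouse.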

Additional observations from a re-analysis of the deposited data

Results flagged for a closer look

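The change against sham differed between 72 and 24 h for 6 of the members, and between 72 and 6 h in sign for Adgre1. Because sham is the same in both, the difference equals the contrast of the later with the earlier time. It was 1.46 for Plac8, 1.37 for Ms4a4c, 4.92 for Ms4a7, 1.67 for Fcgr1, 3.00 for Adgre1 and 2.68 for Cd68 on the log2 scale, each called by edgeR over all tested genes and each with the libraries at 72 h above those at 24 h. For Adgre1 the change at 72 h exceeded that at 6 h by 4.41, with 6 h below and 72 h above sham. The 6 h libraries overlapped with sham, and the call at 6 h was lost under 7 of 15 alternatives.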

How the results depend on the processing

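Member fold changes were tallied for 6, 24 and 72 h against sham, 24 against 6 h and 72 against 24 h only. Under the alternatives that keep all mice, 427 of 450 member fold changes kept their direction and side of the threshold, 10 lost a call, 10 gained one and 3 reversed. Leaving out 1 mouse at a time kept 278 of 300, with 10 lost, 5 gained and 7 reversed. In fits of only the 6 libraries compared, 1 member was called at 1 h against sham (Nos2, lower, with 5 members tested) and 4 between 24 and 6 h. Between 24 and 6 h, Plac8, Chil3, Arg1 and Ms4a7 lost their calls in that fit (edgeR adjusted p = 0.110, 0.241, 0.0820 and 0.111). Nos2 at 72 h against sham became 0.20 with library totals and 0.14 and 0.17 on log2 FPKM with 1 and 0.1 added. The fit of 6 libraries called Nos2 lower there, at -0.38. Library totals also moved the median of all genes against sham to -0.12, 0.20 and 0.61 at 6, 24 and 72 h. Without 1 mouse, some of the tallied fold changes crossed 0. Against sham, these were Ms4a7 at 6 h (-0.70 to 0.17) and Nos2 at 24 h (-0.36 to 0.48). Between times, they were Ly6c2 from 6 to 24 h (-0.58 to 0.78) and Arg1 from 24 to 72 h (-1.89 to 0.05). The difference in the ratio of Arg1 to Nos2 also crossed 0 (-1.01 to 0.24). None of these had been called with all mice. The causes were not tested. Members called ran from 6 to 7 at 6 h, from 7 to 8 between 6 and 1 h, from 7 to 9 between 24 and 6 h and from 6 to 8 between 72 and 24 h, and were 9 at 24 and 72 h and 0 at 10 min and 1 h in every such fit.

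No batch is described for mice with the same replicate number. Their deviations from the group means had r from -0.26 to 0.25 over 45 pairs, with 4 over 0.1. The median r was 0.04, and -0.01 for pairs with different numbers, and 9 of 18 libraries correlated best with their own number. Whether such mice shared a batch cannot be told from these values. With the replicate block, 7 members were called at 6 h, 9 at 24 h and 9 at 72 h. The block took Adgre1 at 6 h past the threshold (edgeR adjusted p = 0.0657) and brought Ly6c2 between 72 and 24 h under it (edgeR adjusted p = 0.0485). Depth limits the members with few sham counts, Arg1 with 6, Chil3 with 7 and Plac8 with 12, whose fold sizes are imprecise.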
